A study of Drosophila melanogaster with 2 samples.

Results

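Nf-YA peaks were examined at promoters that do not share their upstream region with a second, divergently transcribed protein-coding gene. A peak was included when its summit in the pooled peak list lay no farther than 500 bp from the start site of a protein-coding gene. It was left out when any gene in that reach had a start site within 1000 bp of, and pointing away from, a start site of another protein-coding gene on the opposite strand. Of 3354 pooled peaks, 810 (24.2%, 95% exact interval 22.7 to 25.6) met this rule. A further 635 peaks (18.9%) lay at promoters with a divergent partner and 1909 (56.9%) lay over 500 bp from any coding start site. The material was chromatin from whole Drosophila melanogaster embryos of the strain Nf-YA-GFP, aged 0 to 24 h, in 1 group of 2 biological replicates. The flies expressed an Nf-YA-eGFP fusion, eGFP being a green fluorescent protein that served as the handle for the antibody. Whether the flies also carried an untagged copy of Nf-YA was not given in the sources used here. All cell types and stages of embryogenesis were pooled, so binding in fewer cells and weaker binding per cell cannot be told apart.

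NF-Y is a trimeric transcription factor whose NF-YA subunit contacts the CCAAT box, while NF-YB and NF-YC form a histone-fold pair that binds the DNA around it. In vertebrates the CCAAT box typically sits a short way upstream of the start site of many promoters. In Drosophila, promoters of developmental regulators often carry GAGA elements, bound by the GAGA factor, and those of ribosomal protein genes carry a polypyrimidine initiator called TCT.

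The sequences below are 101 bp windows centred on summits of tall peaks, read in the direction of the gene from the RefSeq genome of the dm6 assembly. They show the kinds of site that the motif counts rest on. In the first 4, capitals mark the NF-Y motif, which is CCAAT after a pair of purines and before C or G and then a purine. They belong to caup (an Iroquois homeobox gene, chr3L:12609437-12609537, plus strand), ey (the Pax6 eye selector, chr4:704466-704566, plus strand) and the T-box genes Doc3 (chr3L:9004885-9004985, plus strand) and Doc1 (chr3L:9041177-9041277, plus strand). In the next pair, capitals mark GAGAG or its complement, at the Pax gene eyg (chr3L:12468133-12468233, minus strand) and the homeobox gene unc-4 (chrX:17768207-17768307, plus strand). The last pair are the tallest peaks, at the pair-rule gene opa (chr3R:4852481-4852581, plus strand, capitals mark CCAAT without the rest of the motif) and at CG14100 (chr3L:19590543-19590643, minus strand), whose window holds no CCAAT.
caup: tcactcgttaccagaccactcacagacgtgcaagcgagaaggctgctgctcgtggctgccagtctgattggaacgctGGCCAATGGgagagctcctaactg
ey: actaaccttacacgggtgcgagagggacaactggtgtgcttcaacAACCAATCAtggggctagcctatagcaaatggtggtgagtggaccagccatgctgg
Doc3: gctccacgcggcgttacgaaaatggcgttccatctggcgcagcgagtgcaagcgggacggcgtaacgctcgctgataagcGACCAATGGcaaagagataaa
Doc1: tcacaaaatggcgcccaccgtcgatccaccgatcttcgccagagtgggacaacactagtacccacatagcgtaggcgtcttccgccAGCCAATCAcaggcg
eyg: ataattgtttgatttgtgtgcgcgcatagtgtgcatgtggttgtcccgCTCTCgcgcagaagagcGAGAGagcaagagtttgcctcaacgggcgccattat
unc-4: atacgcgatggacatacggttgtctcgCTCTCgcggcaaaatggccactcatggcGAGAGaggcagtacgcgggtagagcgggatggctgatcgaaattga
opa: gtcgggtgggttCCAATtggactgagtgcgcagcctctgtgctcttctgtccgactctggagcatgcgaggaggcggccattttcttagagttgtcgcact
CG14100: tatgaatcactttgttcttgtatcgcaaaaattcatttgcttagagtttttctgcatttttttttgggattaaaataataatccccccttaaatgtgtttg

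The tallest of these peaks included many at transcription factor and Polycomb group genes. Peak signal is the authors' value, on a scale the files do not state, and is used here to describe and rank peaks. At opa the signal was 1266 in the pooled list, 628 in replicate 1 and 626 in replicate 2. At CG14100, a gene named here only by its annotation symbol, it was 1011, 369 and 655. At CG18549 it was 774, 317.9 and 460. The replicates were level at opa, while replicate 2 was higher at both CG genes. At ph-p, which encodes the Polycomb group protein Polyhomeotic-proximal, the signal was 770 in the pooled list, 287 in replicate 1 and 489 in replicate 2. At caup it was 739, 368 and 372. At toy, a second Pax6 gene, it was 721, 342 and 377. Among the 20 tallest peaks present in both replicates' thresholded lists, signal ran from 493 to 1266 in the pooled list, from 203 to 628 in replicate 1 and from 205 to 655 in replicate 2. Replicate 1 was the higher in 9 of these 20. The homeobox genes scro, ap, lbe and inv, the Polycomb group genes Psc and Su(z)2, and the forkhead gene fkh were also among them. The others were eIF6, a ribosome biogenesis factor, GstE13, a glutathione S-transferase, Sesn with its neighbour CG46429, osp, Tina-1, CG1888 and ey. Summits lay upstream of the start site in 18 of the 20, at a median of 145 bp, a CCAAT lay within 50 bp of 9 summits, and the full NF-Y motif within 50 bp of 2.

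**Figure D1:**
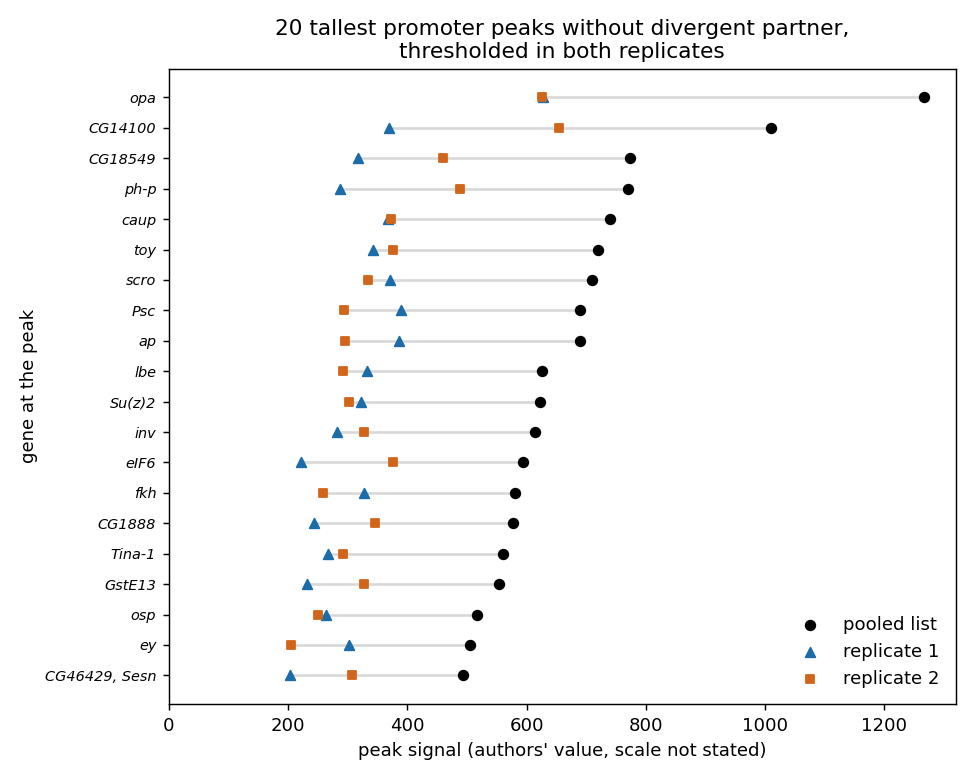
Peak signal (authors' value, scale not stated) of the 20 tallest promoter peaks without divergent partner that were thresholded in both replicates. Circles give the pooled list, triangles replicate 1 and squares replicate 2, and pooled signals run from 493 to 1266.

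Over all 810 peaks the signal had a median of 95.7 (quartiles 68.4 and 162, range 2.40 to 1266). Of the 804 peaks ranked in each replicate, 249 (31.0%) had the higher value in replicate 1. Over all pooled peaks 869 of 3330 (26.1%) did, with 18.7% at divergent promoters and 26.5% away from start sites. Peaks overlapping a thresholded peak of both replicates numbered 398 (49.1%, 45.6 to 52.6). A further 100 overlapped one in replicate 1 only, 138 in replicate 2 only and 174 (21.5%) in neither. Of the divergent promoter peaks, 275 of 635 (43.3%, 39.4 to 47.3) were in both replicates, which is 5.83 points fewer (Fisher's exact test, two-sided, p = 0.0294, 0.0392 adjusted over 8 class comparisons). Over the alternatives this call was made on the unadjusted Fisher's exact p. It was lost on the conservative list (Fisher's exact p = 0.0686) and with a divergent distance of 500 bp (Fisher's exact p = 0.615). Promoter distances of 250 bp (Fisher's exact p = 0.437) and 1000 bp (Fisher's exact p = 0.126) also lost it. In the list of replicate 1 alone the shares were 61.5% and 50.9% (Fisher's exact test, adjusted p = 9.5e-05), and in that of replicate 2 they were 66.2% and 66.6% (Fisher's exact test, adjusted p = 0.958). Whether the class difference itself differed between the replicates was not tested. Peaks away from start sites were in both replicates less often, at 36.0% (Fisher's exact test, adjusted p = 8.58e-10). These tests treat peaks as units and say nothing about variation between embryo collections.

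Peak height did not separate promoter peaks with and without a divergent partner at this threshold. Signal exceeded the median of the pooled list at 55.4% of the peaks without a partner and at 55.3% of those with one (difference 0.157 points, Fisher's exact test, p = 0.958). Among peaks away from start sites 45.9% did (Fisher's exact test, adjusted p = 1.87e-05). Promoter peaks without a partner made up 9 of the 20 tallest pooled peaks, 38 of the 100 tallest, 31.9% of the top 25% and 21.7% of the bottom 25%. Their share of all pooled peaks was 24.2%. Divergent promoter peaks, 18.9% of all, made up 8 of the 20 tallest, 28 of the 100 tallest, 22.3% of the top and 17.2% of the bottom 25%.

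Summits lay upstream of the nearest start site at 620 peaks (76.5%) and downstream at 190 (23.5%, 20.6 to 26.5). The median signed position was 135 bp upstream (written as -135), with quartiles of -235 and -10, and the fullest 50 bp bin ran from -150 to -101, with 122 peaks. On the own thresholded lists the downstream share was 15.4% without replicate 1 and 19.4% without replicate 2. Within 100 bp of the start site lay 28.5% of the summits. At divergent promoters the median was -75 and 46.8% lay within 100 bp, but the class rule itself uses start-site distance and a divergent promoter has a second start site nearby, so these values are a description and no comparison. Intergenic sequence held 47.7% of the summits, introns 27.3%, 5′ untranslated regions 18.3% and coding sequence 3.58%. The nearest start site was the outermost of its gene at 588 peaks (72.6%), and 70 peaks (8.64%) had a divergent non-coding gene within 1000 bp. At the 500 bp limit, the farthest summits kept were those of CG10479 and CG43658, both 500 bp away, with signals of 337 and 107. The nearest ones beyond it were at CG43736, 504 bp away, and Sqor, 505 bp away, with signals of 160 and 135. At the 1000 bp limit, CG11961 with a gap of 1007 bp was kept, with summits of 53.8 and 4.63, while Sarm (gap 992 bp, signal 182) and Smg5 (gap 984 bp, signal 248) were not.

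**Figure D2:**
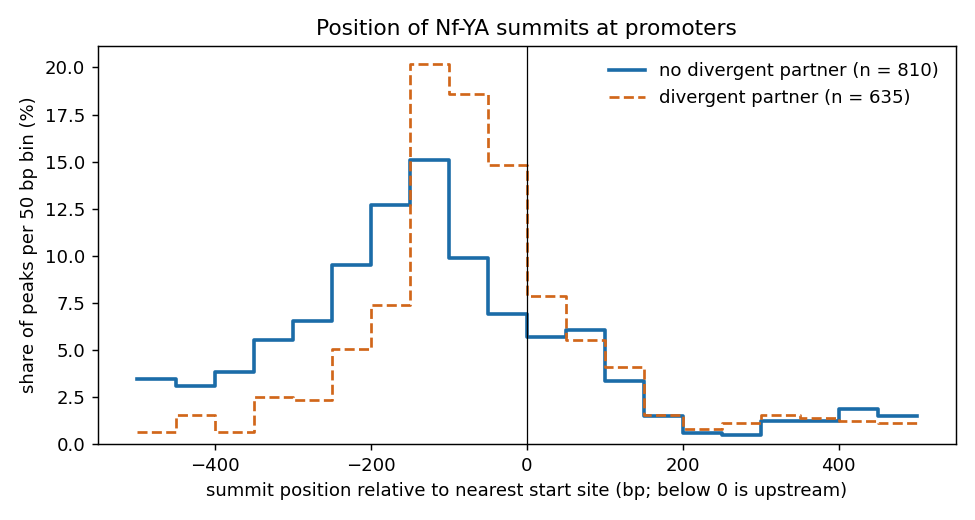
Position of the summit relative to the nearest start site (bp, below 0 is upstream), as the share of peaks in each 50 bp bin. The solid line gives the 810 peaks without divergent partner, fullest from -150 to -101 bp, and the dashed line the 635 with one.

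Summit position varied with peak height, described here without a test. Among the tallest 25% (signal 162 and above) the median position was -166 and 17 of 203 summits (8.37%, 4.95 to 13.1) lay downstream. Of the next 25% and the 25% after it, 16.3% and 23.8% did. Among the lowest 25% the median was -33 and 92 of 203 (45.3%, 38.3 to 52.4) lay downstream. Of the 810 summits, 46 lay within 330 bp of a taller pooled summit. Without them the lowest 25% had 46.5% of its summits downstream (38.5 to 54.6, 157 peaks). At divergent promoters the shares were 17.0% in the tallest and 44.0% in the lowest 25%. Mean GC content was 38.1% (SD 14.7) in the tallest 25% and 44.2% (SD 11.5) in the lowest 25%, and the part of base composition in these positions was not tested.

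**Figure D3:**
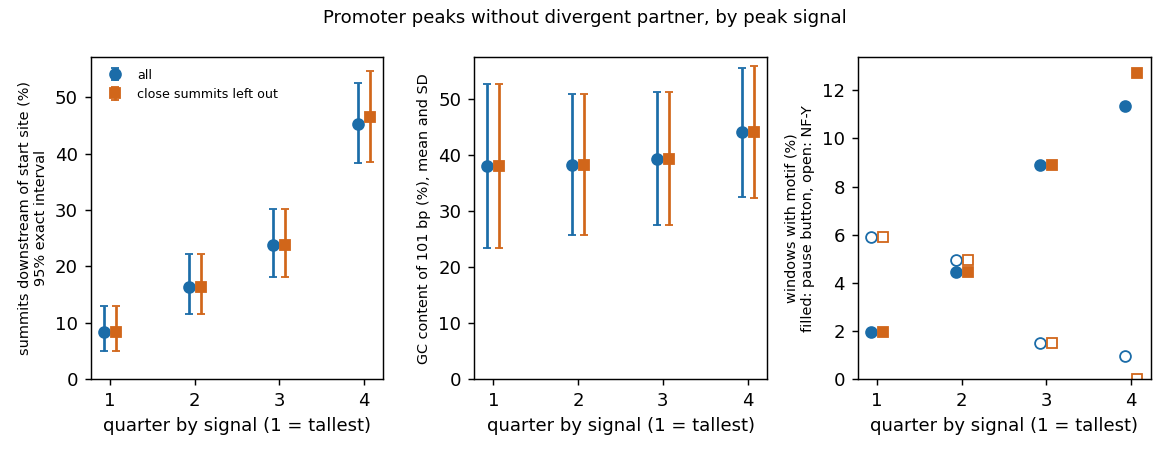
Promoter peaks without divergent partner in 4 equal groups by signal, 1 being the tallest. Left, share of summits downstream of the start site with 95% exact intervals (8.37% in the tallest, 45.3% in the lowest group). Middle, mean GC content with SD. Right, share of windows with the pause button (filled) and the NF-Y motif (open). Orange leaves out summits close to a taller one.

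Of 13945 protein-coding genes on the arms analysed, 8893 had no divergent partner, and 740 of these had such a peak within 500 bp. That is 8.32% (7.76 to 8.91), the background for the gene groups that follow, and 4.98% when only the upper 50% of pooled peaks by signal were used. The share ran from 8.04% to 8.92% across the chromosome arms. It was 5.35% for genes with 1 annotated start site, 13.2% with 2, 26.1% with 3 or 4 and 38.1% with 5 or more. Bound genes had a median length of 6541 bp against 1943 bp for the others. Genes with more start sites offer more sequence within reach, and the shares below are not corrected for this except where stated.

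Lists of developmental patterning genes had a peak more often than that background, as a description of lists chosen with results known. Of 5 such lists, 4 hold transcription factor genes by family, though not every gene of a family. The list of segmentation genes also holds the ligand genes wg and hh and the receptor gene ptc. Over these 5 lists, 59 of 95 without a divergent partner (62.1%, 51.6 to 71.9) had a peak, and 34 of 59 (57.6%, 44.1 to 70.4) among those with 1 start site. The T-box, GATA, Snail and Odd-skipped list had 14 of 19 bound (73.7%). Its tallest peaks were at Doc3 (pooled 424, replicate 1 224, replicate 2 201) and Doc1 (336, 181 and 153). Doc1, Doc2 and Doc3 are T-box genes of the dorsal ectoderm and heart, and all 3 were bound. The list of other homeobox and Pax genes had 17 of 25 bound (68.0%), led by caup and toy. NK-class and LIM homeobox genes had 12 of 20 (60.0%), led by scro and by ap, the wing selector apterous, whose signal was 689 in the pooled list, 386 in replicate 1 and 296 in replicate 2.

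Of the segmentation genes 12 of 23 were bound (52.2%). Besides the ligand gene wg these were transcription factor genes, with opa and inv (pooled 615, replicate 1 282, replicate 2 328) the tallest. The gap genes Kr, hb, kni, gt, hkb and tll were not bound. The Hox genes Scr (180, 71.8 and 103), lab (139, 76.2 and 57.0), Dfd and Abd-B were bound and Antp, Ubx, abd-A and pb were not, which is 4 of 8 (50%). The Abd-B peak overlapped a thresholded peak of neither replicate.

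The other lists share some genes with these 5 and with each other, and a shared gene is counted in each. From these 5, repo is also a glial gene, wg, hh, ptc and ci are also signalling genes, and bap and slou are also muscle genes. Among the other lists, pnt is in both the glial and the signalling list. Hsc70-3, which was not bound, is in both the heat shock and the unfolded protein response list. Of the glial genes 6 of 12 were bound, led by moody (pooled 337, replicate 1 139, replicate 2 194), a G protein-coupled receptor of surface glia, and by repo, the glial homeobox gene (203, 76.8 and 120). Polycomb, Trithorax and insulator genes had 5 of 15 bound (33.3%, 11.8 to 61.6), led by ph-p and by Psc (690, 390 and 294). Axon guidance genes had 6 of 21, led by the semaphorin receptor PlexA (184, 49.1 and 133) and the Slit receptor robo2 (116, 57.5 and 62.7). Components of signalling pathways had 9 of 39 (23.1%, 11.1 to 39.3), led by the Wnt ligand wg (264, 136 and 119) and the Wnt feedback inhibitor nkd (169, 71.8 and 96.9). Of the bound genes, 3 of 6 glial and 3 of 5 in the Polycomb list had a peak thresholded in both replicates. Among axon guidance genes the count was 2 of 6 and among signalling genes 5 of 9.

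Ribosomal protein genes of the cytosol also had a higher share than the background, with 15 of 37 bound (40.5%, 24.8 to 57.9). Their signals were moderate, with RpL23A (pooled 193, replicate 1 61.1, replicate 2 132) and RpL24 (163, 88.6 and 85.5) the tallest. Among those with 1 start site, 6 of 20 (30.0%, 11.9 to 54.3) were bound. Translation factors had 5 of 27 bound (18.5%, 6.30 to 38.1), led by eIF6 (595, 221 and 375) and eEF1gamma (246, 85.4 and 165). Peaks at 12 of the 15 bound ribosomal protein genes and 4 of the 5 translation factor genes were thresholded in both replicates. Mitochondrial ribosomal proteins had 0 of 15 and proteasome subunits 0 of 22, with upper exact limits of 21.8% and 15.4%, above the background of 8.32%.

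Among genes of differentiated or inducible function, odorant and gustatory receptors had 0 of 104 (upper limit 3.48%), and cuticle proteins 2 of 110 (1.82%, 0.221 to 6.41), Cpr65Av and Cpr65Ea. Cytochrome P450 genes had 2 of 71 (2.82%, 0.343 to 9.81), Cyp6u1 and Cyp310a1, and immune peptides 0 of 16 (upper limit 20.6%). The Cyp6u1 summit lay nearest to the start site of another gene, Ufsp1, 12 bp downstream of it. The Cyp310a1 summit lay at -453 and was thresholded in replicate 2 only. The remaining lists were small. Heat shock genes had 2 of 10, Hsp27 (375, 123 and 249) and Hsp26. Apoptosis and JNK genes had 3 of 11, led by hid and Tak1, cell cycle genes 2 of 14, CycE and CycB3, and muscle genes 2 of 13, sls and Tm2. The unfolded protein response list had 1 of 7, Xbp1, and the V-ATPase list 1 of 19, Vha16-1. In the apoptosis and JNK, cell cycle, cuticle and V-ATPase lists, 0 of the bound genes had a peak thresholded in both replicates. The heat shock, muscle, unfolded protein response and cytochrome P450 lists had 1 each. Among the genes named here, the peaks of Tak1, CycE, Tm2 and Cpr65Ea overlapped a thresholded peak of neither replicate.

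**Figure D4:**
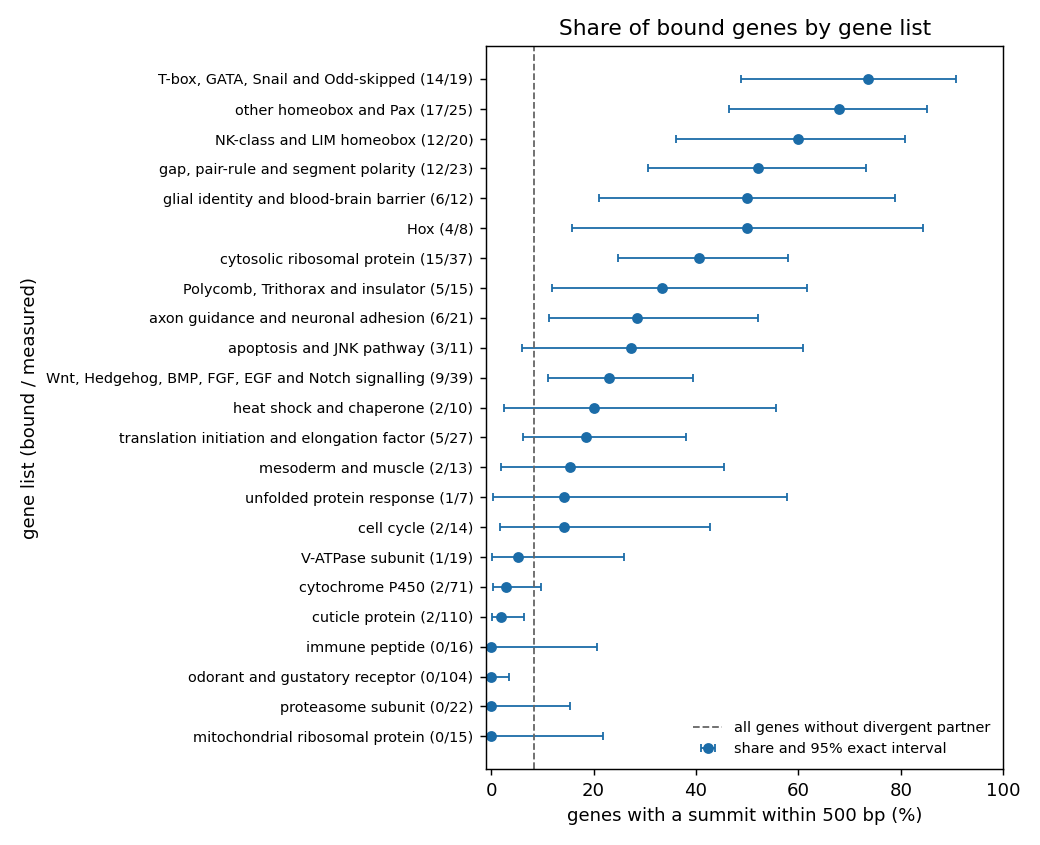
Share of genes without divergent partner that have a peak summit within 500 bp, by gene list, with 95% exact intervals and the bound and total numbers. The dashed line is the share over all such genes, 8.32%; the 5 lists of patterning genes lie at 50% to 73.7%.

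Within 50 bp of the summit, the NF-Y motif was present at 27 of 810 peaks (3.33%, 2.21 to 4.81). It was present in 1.48% of windows 500 bp upstream of the same summits and in 1.10% of 8150 windows at promoters without a peak. The difference from the upstream flank was 1.85 points (McNemar's exact test, p = 0.0237, adjusted p = 0.223 over 22 motifs). On the own thresholded list of replicate 1 the difference was 3.80 points (McNemar's exact test, adjusted p = 0.00715), and on that of replicate 2 it was 1.46 points (McNemar's exact test, adjusted p = 0.471). The bare pentamer CCAAT was in 20% of summit windows and 19.8% of flank windows (McNemar's exact test, p = 0.951). Over the 22 motifs tested, 0 differed between summit and flank at an adjusted p below 0.05 by McNemar's exact test (0% of those tested), and 3 had an unadjusted p below it, NF-Y, GAGA and the pause button.

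The 29 NF-Y matches in these 27 windows lay upstream of the start site with 1 exception, at a median of 141 bp, and 15 were on the strand of the gene. Of the 27 peaks, 18 (66.7%) were in both replicates, and their median signal was 136 against 93.9 for peaks without the motif. Among the tallest 25% 12 peaks had the motif, and among the lowest 25% 2 did, at jagn and Tasp1. Both of these were summits within 330 bp of a taller one, and without such summits the lowest 25% had 0. The 10 tallest were at caup, ey, Doc3, Doc1, unpg, Trp1, eve, esg, repo and prd. Of these, unpg, eve, repo and prd are homeobox genes and esg encodes a Snail-family zinc finger protein. Poxn, a Pax gene of sensory organs, had 3 matches in its window.

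Motif shares at the 5 lists of patterning genes, wg among them, were set beside those of the other peaks. Of 65 such peaks, 11 (16.9%, 8.76 to 28.3) had the NF-Y motif and 35 (53.8%, 41.0 to 66.3) had GAGAG, against 16 of 730 (2.19%, 1.26 to 3.53) and 110 of 730 (15.1%, 12.6 to 17.9) of the peaks at neither these nor ribosomal protein genes. Their median signal was 186 against 91.1, and 81.5% were in both replicates against 45.6%. These contrasts were noticed in the data and carry no test. The lists do not cover every gene of this kind: unc-4 and the Pax genes Poxn and sv were in none of them. Their peaks counted among the 730, and the window at Poxn held the NF-Y motif. In a fixed window of 300 bp upstream of the outermost start site, 13 of 59 bound genes of these lists (22.0%, 12.3 to 34.7) and 2 of 36 unbound ones (5.56%, 0.680 to 18.7) had the NF-Y motif. GAGAG was in 71.2% of the bound and 69.4% of the unbound genes of these lists. Among all genes outside these and the ribosomal protein lists, the NF-Y motif was in 2.85% of bound and 3.25% of unbound windows, and GAGAG in 47.4% and 30.9%.

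Peaks at the 15 ribosomal protein genes lay between -93 and 26 bp of the nearest coding start site with a median of -20. For the RpS27A peak that start site was the one of its neighbour Ip259, at -80. Of these 15, 0 had the NF-Y motif, CCAAT or GAGAG near the summit (upper exact limit 21.8% for each), and 9 (60.0%, 32.3 to 83.7) had the TCT initiator, which was in 10.1% of the 730 other peaks. The initiator lies at the start site, so summit position and motif content cannot be told apart here.

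Against divergent promoter peaks, 3 of the 22 motifs (13.6%) differed by Fisher's exact test at an adjusted p below 0.05, and 1, GAGAG, on the own list of either replicate. GAGAG was in 145 of 810 windows (17.9%, 15.3 to 20.7) against 56 of 635 (8.82%, 6.73 to 11.3), adjusted p = 1.2e-05 by Fisher's exact test, and was called under all 13 alternatives run. The TATA box was in 5.68% against 9.76% (Fisher's exact test, adjusted p = 0.0465, called under 7 of 13) and the CTCF motif in 1.85% against 0.315% (Fisher's exact test, adjusted p = 0.0465, called under 5 of 13). The GAGAG share at promoters without a peak was 14.0%. It was 13.8% in windows 500 bp upstream and 16.8% in windows 500 bp downstream of the same 810 summits. Against peaks away from start sites, 4 of the 22 motifs differed at an adjusted p below 0.05 by Fisher's exact test. The DRE (2.96% against 0.943%), the pause button (6.67% against 3.61%) and GAGAG (17.9% against 13.8%) were more frequent here. The GATA motif was less frequent (11.6% against 16.3%). Mean GC content of the summit windows was 40% (SD 13.0) here and 35.9% (SD 11.8) at divergent promoters, 48.7% in windows with GAGAG and 30.2% in those with a TATA box, and the part of base composition in these differences was not tested.

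**Figure D5:**
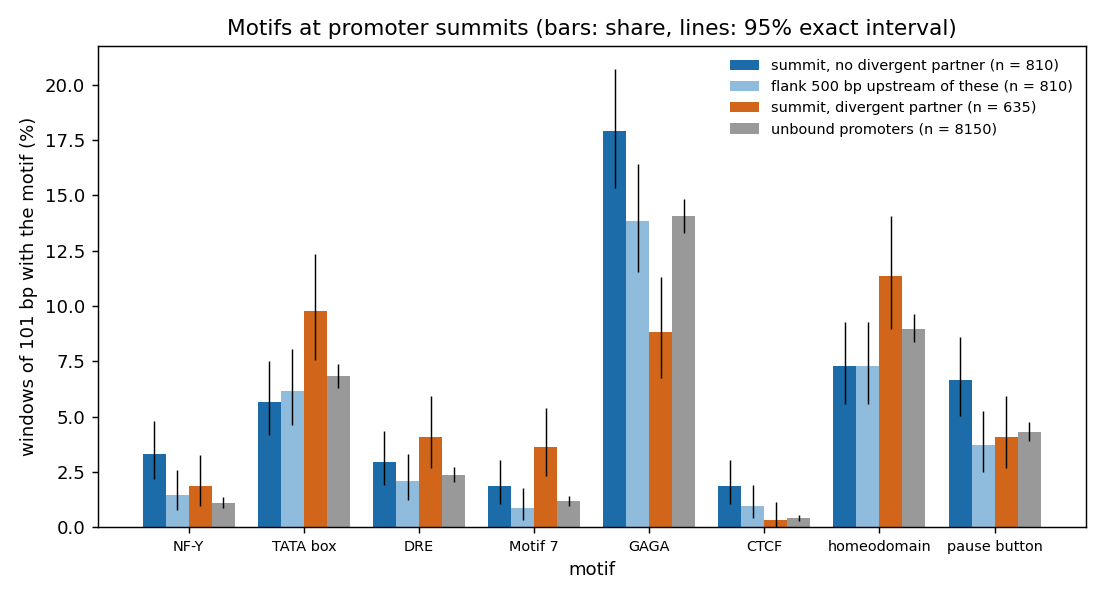
Share of 101 bp windows holding each of 8 motifs, with 95% exact intervals, at the 810 summits without divergent partner, 500 bp upstream of them, at the 635 summits with a divergent partner and at 8150 promoters without a peak. GAGA reads 17.9% and 8.82% at the summits of both classes, and NF-Y 3.33% and 1.89%.

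Chromosome 4 is small and largely heterochromatic. Of its 58 genes without a divergent partner, 5 were bound (8.62%, 2.86 to 19.0, against 8.32% over all arms). They were toy, ey, PlexA, the forkhead gene fd102C (123 in the pooled list, 70.2 in replicate 1, no entry in replicate 2) and the Pax gene sv, which had summits of 52.1 and 8.21 within 203 bp of each other. Over all 810 peaks, the next pooled summit lay within 5000 bp at 356 (44.0%). The share was 40.3% for divergent promoter peaks and 50.7% for peaks away from start sites.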

How the data were processed

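ChIP-seq peak lists of 1 group with 2 biological replicates were analysed. The authors deposited them on the dm6 assembly. For aligner and peak caller, names are not given in the sources used here. Peak signal, as deposited, has no stated scale, and the deposited summit offset gave each summit. A replicate's signal is the highest of any entry overlapping the pooled peak in that replicate's ranked list. These ranked lists held 96038 (replicate 1) and 116026 (replicate 2) entries, and close pooled summits can share the same replicate value. In the pooled list, the lowest deposited score stood for an irreproducible discovery rate of 0.01. Reads were not analysed, so depth is unknown, and a control library named in the labels was not analysed here. Series-wide ranked lists hold 16 columns for unnamed inputs, which were not used. The own thresholded lists held 1793 (replicate 1) and 2159 (replicate 2) peaks.

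Start sites came from Ensembl release 115 (BDGP6.54), without transposable elements and pseudogenes. Replicate overlap required 1 shared bp. Both strands were searched for motifs at most 50 bp from the summit and in windows 500 bp upstream and 500 bp downstream of it. At promoters without a peak, windows of equal length were centred 135 bp upstream of the outermost start site. The motifs sought were the NF-Y motif and CCAAT alone. The TATA box was TATA followed by either A or T, then by AA and a purine. The initiator was TCA followed by either G or T, then by T and a pyrimidine. The TCT initiator was CTTT flanked by a pair of pyrimidines on each side. The DPE-like motif was a purine and G followed by either A or T, then by CGTG. The DRE was ATCGAT flanked on each side by a weakly pairing base. GAGA stood for the word GAGAG, and the E-boxes sought were CAGCTG and also CACGTG. Zelda stood for the word CAGGTA. The CTCF motif was AG followed by a purine, any base and then the word GGCGC. The GATA motif was GATAA preceded by a weakly pairing base. The Exd-Hox motif was TGATNNAT, while the homeodomain motif was TAATTA. The pause button was G or T followed by CG, a purine, a weakly pairing base and again CG. The CA repeat was CACACACA, the Sp1-like box was GGGCGG and the STAT motif was TTCNNNGAA. Core promoter motifs 1, 6 and 7 are given by name. CCAAT lies within the NF-Y motif.

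Summit and flank were compared by McNemar's exact test and classes of peaks by Fisher's exact test, two-sided, with Benjamini-Hochberg adjustment over the 22 motifs or the 8 class comparisons and a threshold of 0.05. Each 95% interval is an exact binomial one (Clopper-Pearson) that covers counting error only. Gene lists (23) are described without a test. The rule for naming took the genes of the 20 tallest peaks in both replicates, the 2 tallest of each list, the 10 tallest with the NF-Y motif, those at the edges of both distance limits and those on chromosome 4; other genes were named after their values were seen. The peaks, motifs and lists were chosen with earlier results of these data known, and symbol spellings were adjusted to the annotation. The GAGA result followed over the alternatives, the 4 groups by signal, the comparison of gene groups by motif, the fixed 300 bp window, the split by number of start sites and the omission of close summits were added after seeing the data. Classification and tests were tested on simulated data. Scripts ran under Python 3.11.15 with scipy 1.17.1 and pandas 2.3.3.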

Additional observations from a re-analysis of the deposited data

How the results depend on the processing

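Over 120 recomputed values of 10 results, 77 were labelled the same. These kept their direction and call, stayed within the interval of the reported value or, for motif counts, stayed close to the reported count. For differences between classes in replicate overlap and in signal, the call used Fisher's exact p without adjustment over the 8 class comparisons. A motif count can hold while its motifs change. On the conservative list the 3 motifs differing from divergent promoters were GAGA, CTCF and homeodomain, without the TATA box. Among promoter peaks 56.1% had no divergent partner. This share was 51.5% and 59.2% with promoter distances of 250 and 1000 bp, 66.4% and 48.7% with divergent distances of 500 and 2000 bp, 51.2% when non-coding partners counted, and 58.7% with outermost start sites only. The excess of 5.83 points in both replicates fell below the threshold on the conservative list (5.17), with promoter distances of 250 bp (2.34) and 1000 bp (3.69) and with a divergent distance of 500 bp (1.52). The difference in the share above the median signal, 0.157 points, turned to -3.96, -1.10 and -3.57 points with promoter distances of 250 and 1000 bp and a divergent distance of 500 bp, and passed the threshold under none of its alternatives. Motifs differing between summit and upstream flank numbered 0, but 1 with outermost start sites (pause button), 1 with 25 bp windows (GAGA), 4 with 100 bp windows and 1 against the downstream flank (CA repeat). Motifs differing from divergent promoters numbered 3, but 1 (GAGA) in the upper 50% by signal, at 250 bp and with non-coding partners, and 10 with 100 bp windows. The bound share of 8.32% was 4.98% in the upper 50% by signal, 6.21% and 10.5% at 250 and 1000 bp, 8.99% with a divergent distance of 500 bp and 7.11% with outermost start sites. The downstream share of 23.5% was 20.2% on the conservative list, 12% in the upper 50% and 27.7% at 1000 bp, and the median distance of 159 bp was 175, 122 and 230 bp in the upper 50% and at 250 and 1000 bp. On the own lists of single replicates, each leaving out the other, the share without partner was 55.1% to 60.4%, the NF-Y difference 1.46 to 3.80 points (past the threshold without replicate 2), the motif counts 0 to 2 against the flank and 1 in either list against divergent promoters, the bound share 5.57% to 5.89%, the downstream share 15.4% to 19.4% and the median distance 173.5 to 175 bp. The cause of these changes was not tested. Leaving out summits close to a taller one, an alternative chosen after seeing the data, moved no result by these labels. For the excess in both replicates, the unadjusted Fisher's exact p was 0.0390 there. It was 0.0487 when the summit had to lie inside the replicate's peak. Whether these 2 calls would hold after adjustment was not tested. No paired analysis was possible because the series has 1 group. Library depth is unknown.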
